A study of Mus musculus with 28 samples.

Results

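Gastrulating mouse embryos form the primitive streak, a transient band of epiblast cells from which mesoderm and endoderm leave, and a small set of genes marks that step. The 10 genes described here are the streak and nascent mesoderm factors T (Brachyury), Evx1, Mixl1, Eomes, Gsc, Mesp1, Mesp2, Msgn1, Tbx6 and Aplnr. They were taken by symbol from 2 deposited tables that each hold 37583 genes, and all 10 were found as 1 row each in both tables. Their levels were followed in 28 RNA libraries from mouse embryonic stem cells (mESCs) and from day 5 embryoid bodies (EBs), the aggregates that stem cells form as they differentiate after withdrawal of the cytokine LIF.

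In the embryo, Wnt3, Nodal and BMP4 signals from the epiblast and the neighbouring extraembryonic tissue induce the streak. T and Eomes are T-box transcription factors: T is a target of Wnt signalling and is needed for posterior mesoderm, and Eomes acts downstream of Nodal and is needed for cardiac mesoderm and definitive endoderm. Mixl1, Gsc and Evx1 are homeobox factors of the whole, the anterior and the posterior streak in that order. Mesp1 and Mesp2 are related bHLH factors, the first of early cardiac and cranial mesoderm and the other of forming somites. Msgn1 (a bHLH factor) and Tbx6 (a T-box factor) act in presomitic mesoderm, and Aplnr is the apelin receptor, a surface receptor of early mesoderm.

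The CJ7 stem cell line was studied in 4 genotypes, each with 2 EB and 2 mESC libraries: Eed null, EloA K754M, EloA K754R and wild type. Eed is a core subunit of Polycomb repressive complex 2 (PRC2), which methylates histone H3. EloA is Elongin A, a subunit of the Elongin complex that acts on RNA polymerase II, and K754M and K754R replace lysine K754 by methionine or arginine. Of the CCE line there were 3 EloA null and 3 EloA wild type libraries at the mESC stage. At the EB stage it gave pair A, pair B and EloA wild type, with 2 libraries in each. Pairs A and B carry no genotype here, because the titles call pair A EloA null and pair B EloA+/-, while the names of the data columns call pair A heterozygous and pair B null. All mESCs grew on mouse embryonic fibroblasts with LIF and 2i (the inhibitors PD0325901 and CHIR99021), the feeders were then depleted by plating. No label ties a replicate to its own culture, dish or clone, so the distance between libraries of 1 group can be technical. Every p-value rests on such distances, pooled over all groups of a fit and moderated across genes.

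Values are RPKM, read counts scaled to gene length in kilobases and to library size. The step of 1 read in these values gave a depth of 28.7 to 39.9 M reads (megareads) in CJ7 EBs, 23.6 to 30.9 in CCE EBs, 11.1 to 18.2 in CJ7 mESCs and 24.3 to 46.4 in CCE mESCs. Eed read 15.8 and 16.3 RPKM in Eed null EBs, against 49.6 and 55.3 RPKM in wild type CJ7 EBs, and 22.3 and 22.1 RPKM in Eed null mESCs, against 105 and 119 RPKM in wild type CJ7 mESCs. Tceb3, the gene of Elongin A, read 6.17 to 8.02 RPKM in EloA null CCE mESCs, against 10.7 to 11.7 RPKM in the wild type. Neither targeted gene was at 0. In pairs A and B Tceb3 read 7.94 and 9.09 RPKM (pair A) and 7.70 and 8.64 RPKM (pair B), against 9.89 and 11.4 RPKM in wild type CCE EBs, so its level did not set the 2 pairs apart.

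The promoters of T, Msgn1 and Mesp1 are shown because these 3 genes had the largest fitted decreases in K754R EBs, and those of Eomes and Gsc because both streak genes overlapped the wild type in the same EBs. The bases are the 250 before the RefSeq start of each gene (RefSeq, GRCm38.p6, gene strand, 5′ to 3′). They lie at chr17:8434173-8434422 on the plus strand for T, chr12:11208949-11209198 on the minus strand for Msgn1, chr7:79793591-79793840 on the minus strand for Mesp1, chr9:118477939-118478188 on the plus strand for Eomes and chr12:104473237-104473486 on the minus strand for Gsc. Capitals mark CTTTGA, the core of the TCF/LEF motif through which Wnt signalling acts, or the longer ATCAAAG, on either strand; the longer motif contains the core.
T: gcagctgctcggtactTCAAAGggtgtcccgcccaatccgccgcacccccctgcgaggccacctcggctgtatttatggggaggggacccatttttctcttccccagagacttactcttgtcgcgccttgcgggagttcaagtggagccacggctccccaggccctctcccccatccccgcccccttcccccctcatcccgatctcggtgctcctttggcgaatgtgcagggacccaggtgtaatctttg
Msgn1: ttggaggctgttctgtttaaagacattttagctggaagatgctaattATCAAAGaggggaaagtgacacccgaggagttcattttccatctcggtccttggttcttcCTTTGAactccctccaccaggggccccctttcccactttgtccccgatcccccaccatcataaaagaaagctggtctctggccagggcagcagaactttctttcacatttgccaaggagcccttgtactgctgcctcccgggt
Mesp1: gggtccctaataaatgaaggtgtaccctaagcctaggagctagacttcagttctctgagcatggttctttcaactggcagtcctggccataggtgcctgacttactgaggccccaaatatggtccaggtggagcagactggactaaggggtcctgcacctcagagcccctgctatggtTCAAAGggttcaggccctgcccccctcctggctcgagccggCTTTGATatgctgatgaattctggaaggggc
Eomes: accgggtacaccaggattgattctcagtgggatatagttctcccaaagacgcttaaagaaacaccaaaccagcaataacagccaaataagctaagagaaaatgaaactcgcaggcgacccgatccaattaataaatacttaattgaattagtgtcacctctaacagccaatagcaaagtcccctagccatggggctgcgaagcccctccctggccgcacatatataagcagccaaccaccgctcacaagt
Gsc: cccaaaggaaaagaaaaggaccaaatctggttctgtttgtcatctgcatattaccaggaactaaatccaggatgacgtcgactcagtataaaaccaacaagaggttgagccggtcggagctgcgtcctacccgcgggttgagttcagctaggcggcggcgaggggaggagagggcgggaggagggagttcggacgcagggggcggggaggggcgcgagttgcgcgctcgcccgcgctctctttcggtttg
The table held promoters of 8 of the 10 genes, all but Mixl1 and Aplnr. The core CTTTGA was found in 3 of the 8, T, Mesp1 and Msgn1, and in 13.8% of all 32851 promoters over the same 250 bases. Evx1, which was also called lower in K754R EBs, held no match of the core, nor did Eomes, Gsc, Mesp2 and Tbx6. The longer ATCAAAG was found in Mesp1 (31 to 25 bases before the start) and Msgn1 (203 to 197 bases before it) and in 3.21% of all promoters. None of the 8 held the T-box motif TCACACC (3.33% of all promoters), the FOXH1 motif AATCCAC (2.1%), the bicoid-type motif TAATCC (6.25%) or the SMAD motif GTCTAGAC (0.167%), each searched on both strands. TATAAA was found in Tbx6 and Gsc (12.4% of all promoters), and CCAAT in T and Eomes (33.8%). These are matches of letters in short windows, searched with the expression values known, and do not show that a factor binds there. The CpG count of the windows was 2 in Mesp1, 4 in Msgn1, 6 in Tbx6 and 8 in both Eomes and Mesp2. It was 10 in Evx1, 14 in T and 22 in Gsc, against a median of 6 over all promoters.

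In wild type EBs of both lines T was the most abundant of the 10, at 57.5 and 69.4 RPKM in CJ7 and 37.4 and 58.1 RPKM in CCE. Mesp1 came next on average in both lines and had the widest gap between replicates in RPKM, at 32.2 and 60.9 RPKM in CJ7 and 14.6 and 42.2 RPKM in CCE. Its libraries overlapped those of T in both lines and those of Aplnr in CCE. Aplnr (21.3 and 18.2 RPKM in CJ7, 23.5 and 29.9 RPKM in CCE) overlapped Eomes in CJ7 (20.4 and 17.9 RPKM) but stood well above it in CCE (6.71 and 7.73 RPKM). Gsc, Evx1 and Mixl1 were at 3.68 to 9.72 RPKM in both lines and overlapped one another in CJ7. Msgn1 was at 3.28 to 5.99 RPKM, Tbx6 at 0.972 to 2.47 RPKM, and Mesp2 at 0.190 to 0.861 RPKM, which is 13 to 60 reads.

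**Figure D1:**
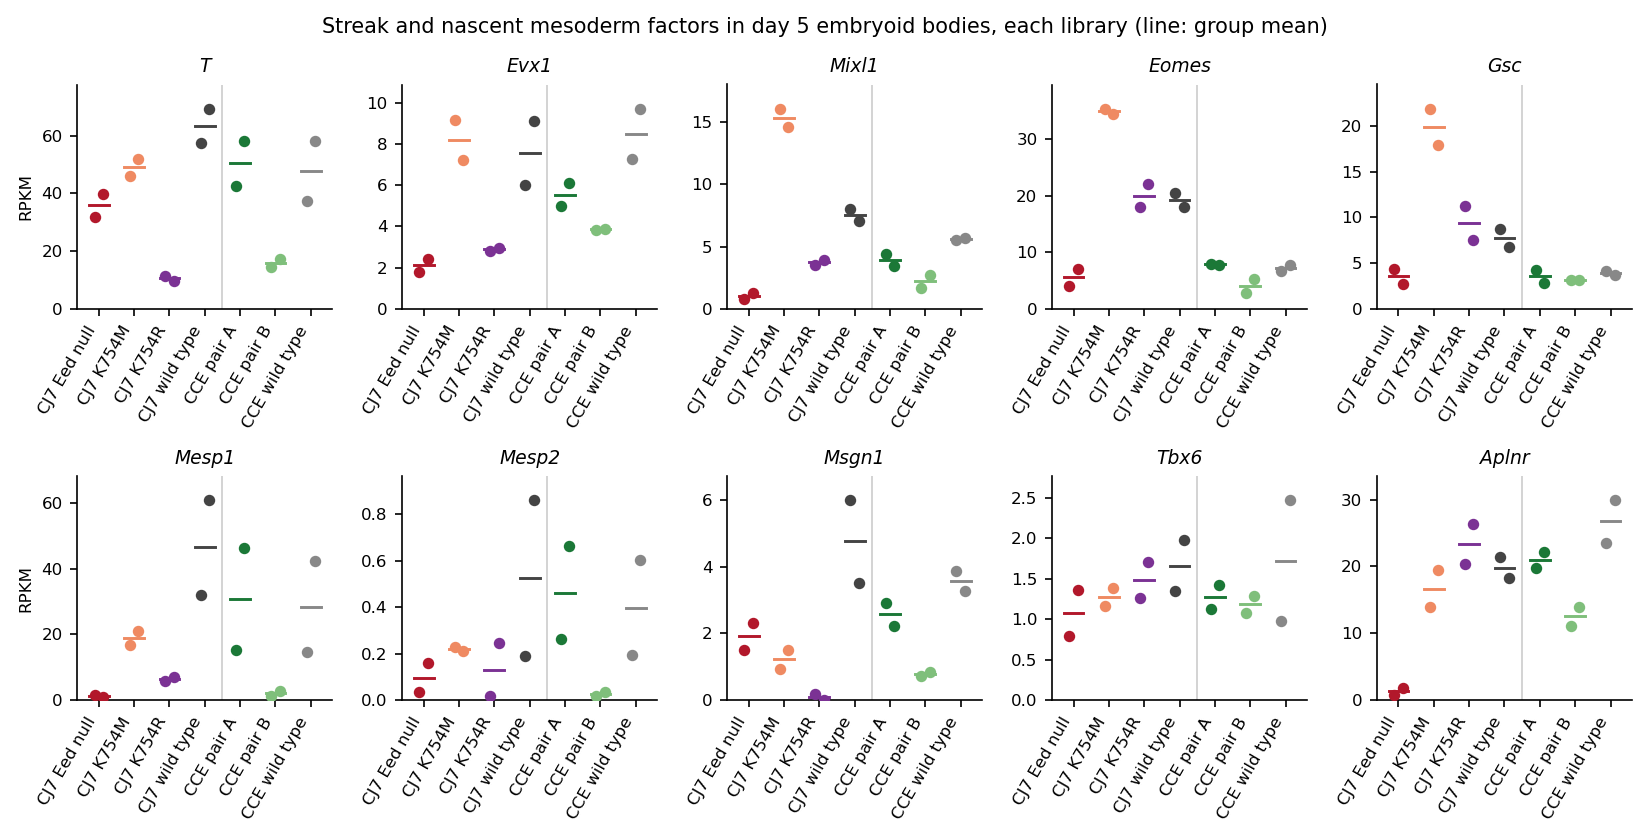
RPKM of each of the 10 genes in the 14 day 5 EB libraries, 1 panel per gene with its own axis from 0, points for libraries and lines for group means; a vertical line parts CJ7 from CCE. T, Mesp1 and Msgn1 are low in K754R and in pair B, Aplnr, Eomes and Mixl1 are lowest in Eed null among CJ7 groups, and Tbx6 overlaps across groups.

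T, Mesp1 and Msgn1 fell in K754R EBs, whereas Eomes, Gsc and Aplnr overlapped the wild type. T was at 11.3 and 9.71 RPKM in K754R EBs, against 57.5 and 69.4 RPKM in wild type CJ7 EBs. Mesp1 was at 5.85 and 7.09 RPKM in K754R EBs, against 32.2 and 60.9 RPKM in the wild type. Msgn1 was at 0.184 and 0 RPKM in K754R EBs, against 5.99 and 3.52 RPKM in the wild type. For these 3 genes every K754R library lay far below every wild type library.

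On the log2(RPKM + 0.5) scale, T fell by 2.54 ± 0.16 in K754R EBs (SE, limma adjusted p = 0.00098), Mesp1 by 2.69 ± 0.31 (adjusted p = 0.00528) and Msgn1 by 3.13 ± 0.32 (adjusted p = 0.00432). Msgn1 rests on 3 and 0 reads in the K754R libraries, against 107 and 64 reads in the wild type, and the 0 allows up to 0.165 RPKM (3 reads). The ratio of its summed reads, K754R over wild type, each divided by the summed depth of the 2 libraries, was 0.0184, with an exact 95% interval from 0.00375 to 0.0546 that covers counting error only. Its fitted log2 change moved with the pseudocount, to -4.80 at 0.1 and -2.37 at 1, while its adjusted p stayed at or under 0.0418 in each of the 11 alternatives.

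Mixl1 and Evx1 also fell in K754R EBs, by less. Mixl1 was at 3.55 and 3.91 RPKM in K754R EBs, against 8.02 and 7.05 RPKM in the wild type (log2 change -0.92 ± 0.19, adjusted p = 0.0295). Evx1 was at 2.80 and 2.96 RPKM in K754R EBs, against 6.01 and 9.10 RPKM in the wild type (log2 change -1.23 ± 0.23, adjusted p = 0.0222). Both pairs of libraries were apart, but the call of Mixl1 was lost without any 1 of the 4 libraries (adjusted p up to 0.145) and with no filter (adjusted p = 0.0564), and that of Evx1 without either K754R library or wild type replicate 2 (up to 0.116). The Evx1 gene overlaps its antisense RNA Evx1os, and the use of strand in counting is not given in the sources used here, so their reads cannot be told apart. Exons of Eomes overlap the antisense gene Gm33460, which has no values of its own here, and the same limit holds for Eomes.

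Eomes was at 18.0 and 22.03 RPKM in K754R EBs, against 20.4 and 17.9 RPKM in the wild type, a log2 change of 0.06 with a 95% interval from -0.48 to 0.59 (adjusted p = 0.906). Gsc was at 11.2 and 7.57 RPKM in K754R EBs, against 8.77 and 6.81 RPKM (log2 change 0.24, interval -0.38 to 0.86). Aplnr was at 20.4 and 26.4 RPKM in K754R EBs, against 21.3 and 18.2 RPKM (log2 change 0.23, interval -0.44 to 0.89). The libraries of the 2 genotypes overlapped for these 3 genes, for Tbx6 (1.26 and 1.703 RPKM in K754R, 1.34 and 1.98 RPKM in the wild type) and for Mesp2. In all, 9 of the 10 genes passed the filter on low values, Mesp2 did not, and 5 of the 9 were lower and 0 higher. Over the 19300 genes tested, 9.68% were called in K754R EBs, 4.85% as lower and 4.82% as higher. In bulk RNA fewer cells of a type and less RNA per cell cannot be told apart.

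Other genes of the pathway were counted by list in K754R EBs. Of 16 tested genes of streak induction, 6 were lower and 1 higher. The list holds inducing signals and also the Nodal inhibitors Lefty1 and Lefty2, so its counts give no direction of signalling. Fgf4 is also counted in the list of pluripotency genes. The list summed to 718 and 808 RPKM in undifferentiated wild type CJ7 mESCs, against 399 and 432 RPKM in wild type CJ7 EBs. It is thus not confined to cells that form a streak. Tdgf1 (Cripto, a Nodal co-receptor) averaged 23.8 ± 1.41 RPKM in K754R EBs, against 154.5 ± 27.5 RPKM in the wild type (SD, n = 2 each), a log2 change of -2.66 ± 0.15. Lefty2, a feedback inhibitor of Nodal, averaged 1.23 RPKM in K754R EBs, against 5.64 RPKM (log2 change -1.78), and the ligand genes Fgf8 (-1.08) and Fgf4 (-1.46) fell as well. Wnt3, chosen after its values were seen, averaged 6.20 RPKM in K754R EBs, against 13.1 RPKM (log2 change -1.02 ± 0.21, adjusted p = 0.0269). Nodal, named for the same reason, averaged 9.07 RPKM in K754R EBs, against 7.62 RPKM, with overlapping libraries.

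Among 11 tested targets of Wnt signalling or T, 2 fell and none rose in K754R EBs. They were Sp8, at 0.862 RPKM in K754R EBs, against 7.99 RPKM in the wild type (log2 change -2.65), and Sp5, at 3.72 RPKM, against 7.42 RPKM (-0.90), both Sp-family transcription factors. Apln, the ligand of the receptor Aplnr, fell to 0.620 RPKM in K754R EBs, against 3.94 RPKM (log2 change -2.02, adjusted p = 0.00708), while the libraries of its receptor overlapped. Of 8 tested genes of presomitic and somite segmentation 1 fell, the Notch ligand Dll3 (-1.65), and of 11 tested genes of the anterior streak, node and endoderm 1 fell, Foxj1, a regulator of motile cilia (-1.28). Of 13 tested genes of emerging mesoderm 3 rose and 0 fell: Hand2 (log2 change 1.46) and Gata4 (0.82), which act in heart mesoderm, and the receptor Pdgfra (1.08). Gata4 is also counted in the list of extraembryonic endoderm genes. Other genes are shared between lists too, such as Kdr with the blood and endothelium list and Tbx3 with the pluripotency list. The counts of different lists are therefore not independent.

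Markers of other cell types moved in the same K754R EBs. Of 14 pluripotency genes 6 fell and 0 rose, led by Pou5f1 (Oct4), at 4.53 RPKM in K754R EBs, against 49.0 RPKM, and Nanog, at 5.89 RPKM, against 47.9 RPKM. Their summed level was 50.2 and 40.3 RPKM in K754R EBs, against 168 and 213 RPKM. Of 12 tested fibroblast genes 7 rose, led by Postn and Twist2, with a sum of 397 and 442 RPKM in K754R EBs, against 272 and 274 RPKM. Of 11 tested blood and endothelium genes 3 rose, led by the endothelial receptor Tek. Of 16 extraembryonic endoderm genes 3 rose and 1 fell, with a sum of 344 and 334 RPKM in K754R EBs, against 300 and 253 RPKM. Their part in the changes of the streak factors was not tested.

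**Figure D2:**
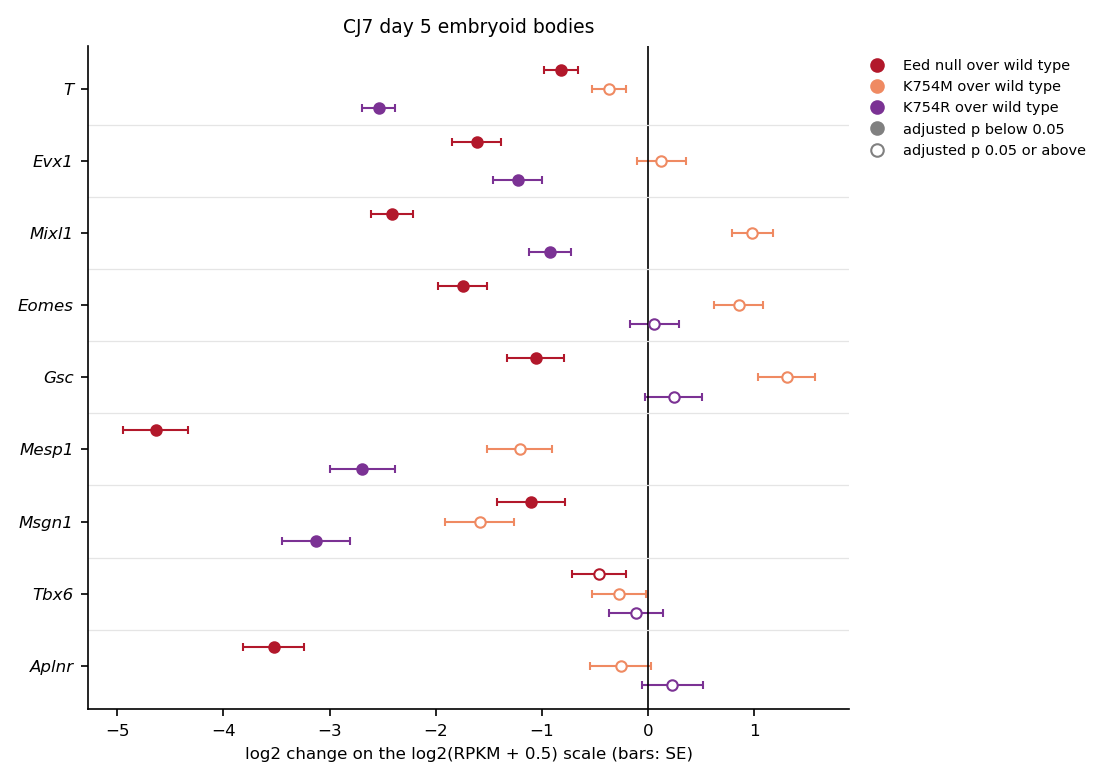
Log2 change on the log2(RPKM + 0.5) scale of 9 genes in Eed null, K754M and K754R over wild type CJ7 EBs, 2 libraries a group; points are limma estimates, bars are SE, and filled points passed an adjusted p of 0.05. In K754R the filled points are T, Evx1, Mixl1, Mesp1 and Msgn1; in Eed null all but Tbx6 are filled, Mesp1 (-4.64) and Aplnr (-3.53) farthest to the left; no K754M point is filled.

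In K754M EBs none of the 9 tested factors passed the test against the wild type, where 0.565% of all genes were called (109, and 2934 at an unadjusted p under 0.05), 0.181% as higher and 0.383% as lower. Among the 9, 6 still had both K754M libraries outside the range of the wild type, 3 above and 3 below. The share of all genes that lay apart in this way was not counted. With so few libraries a group, such gaps can arise by chance. Gsc was at 21.9 and 17.9 RPKM in K754M EBs, against 8.77 and 6.81 RPKM in the wild type (log2 change 1.303 ± 0.27, adjusted p = 0.0867). Eomes was at 35.4 and 34.4 RPKM in K754M EBs, against 20.4 and 17.9 RPKM (0.85 ± 0.23, adjusted p = 0.154). Mixl1 was at 16.1 and 14.6 RPKM in K754M EBs, against 8.02 and 7.05 RPKM (0.98 ± 0.19, adjusted p = 0.0839). So the 3 factors of the general and anterior streak had their highest values of all 14 EB libraries in K754M.

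Msgn1, Mesp1 and T had both K754M libraries below the wild type. Msgn1 was at 0.935 and 1.51 RPKM in K754M EBs, against 5.99 and 3.52 RPKM (log2 change -1.59 ± 0.32, adjusted p = 0.0867). Mesp1 was at 16.8 and 21.2 RPKM in K754M EBs, against 32.2 and 60.9 RPKM (-1.21 ± 0.31, adjusted p = 0.137). T was at 46.1 and 51.8 RPKM in K754M EBs, against 57.5 and 69.4 RPKM (-0.37 ± 0.16, adjusted p = 0.335). Evx1, Aplnr and Tbx6 overlapped the wild type. Of the 16 tested genes of streak induction 1 rose in K754M EBs, the Nodal inhibitor Lefty1, at 8.33 RPKM, against 2.52 RPKM (log2 change 1.60, adjusted p = 0.0491). Of the markers of other cell types, 0 of 14 pluripotency genes passed. In 10 of them both K754M libraries were above both wild type libraries, a share that was not counted over all genes. The sum of the 14 was 301 and 321 RPKM in K754M EBs, against 168 and 213 RPKM in the wild type. Of 12 tested fibroblast genes 1 rose, Vim, and their sum was 436 and 443 RPKM in K754M EBs, against 272 and 274 RPKM. In K754M EBs 1 of 11 tested blood and endothelium genes (Tek) and 1 of 16 extraembryonic endoderm genes (Apob) rose as well. Their part in the levels of the streak factors was not tested.

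The 2 substitutions of the same lysine were compared directly. T was higher in K754M than in K754R EBs, by 2.17 ± 0.16 on the log2 scale (adjusted p = 0.00209), and its call held under all 11 alternatives. Mixl1 (1.91 ± 0.19, adjusted p = 0.00665), Evx1 (1.35 ± 0.23, 0.0265), Mesp1 (1.48 ± 0.31, 0.0473) and Msgn1 (1.54 ± 0.32, 0.0489) were also higher in K754M, 5 of 9 in all, where 3.62% of all genes were called 1.9% as higher and 1.72% as lower. Each of those 4 calls was lost without any 1 of the 4 libraries. The call of Mesp1 was also lost with the fit of all 14 EB libraries (adjusted p = 0.171), a pseudocount of 0.1 or no filter, that of Msgn1 with a pseudocount of 1 or no filter, and that of Evx1 with no filter. Gsc (1.06 ± 0.27, adjusted p = 0.0782) and Eomes (0.79 ± 0.23, 0.11) had both K754M libraries above both K754R libraries without passing, although Gsc passed with the fit of all 14 EB libraries (adjusted p = 0.0382). Aplnr ran the other way, at 13.9 and 19.4 RPKM in K754M EBs, against 20.4 and 26.4 RPKM in K754R EBs (-0.49 ± 0.28, adjusted p = 0.422).

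Several of these other genes differed between the 2 substitutions too. Of the 16 tested genes of streak induction, inhibitors and the pluripotency gene Fgf4 included, 8 were higher in K754M than in K754R EBs and none lower. They were led by Tdgf1, at 146.4 RPKM in K754M EBs, against 23.8 RPKM in K754R EBs (log2 difference 2.60). Apln was at 2.80 RPKM in K754M EBs, against 0.620 RPKM in K754R EBs (1.59, adjusted p = 0.0215). Of the 14 pluripotency genes 8 were higher in K754M EBs and none lower, and their sum was 301 and 321 RPKM in K754M EBs, against 50.2 and 40.3 RPKM in K754R EBs.

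Eed null EBs were low in nearly the whole set. Mesp1 was at 1.61 and 1.03 RPKM in Eed null EBs, against 32.2 and 60.9 RPKM in wild type CJ7 EBs, a log2 change of -4.64 ± 0.31 (adjusted p = 9.17e-05). Aplnr was at 0.835 and 1.81 RPKM in Eed null EBs, against 21.3 and 18.2 RPKM (-3.53 ± 0.28, adjusted p = 0.000176). Mixl1 was at 0.764 and 1.30 RPKM in Eed null EBs, against 8.02 and 7.05 RPKM (-2.41 ± 0.19, adjusted p = 0.000176). In all 3 genes both Eed null libraries were far under the lowest library of any other CJ7 EB group.

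Eomes was at 4.06 and 6.99 RPKM in Eed null EBs, against 20.4 and 17.9 RPKM in the wild type (-1.75 ± 0.23, adjusted p = 0.00141). Evx1 was at 1.79 and 2.42 RPKM in Eed null EBs, against 6.01 and 9.10 RPKM (-1.61 ± 0.23, adjusted p = 0.00212). Gsc was at 4.38 and 2.70 RPKM in Eed null EBs, against 8.77 and 6.81 RPKM (-1.06 ± 0.27, adjusted p = 0.0214). T, the factor with the smallest called change, still held 31.8 and 39.8 RPKM in Eed null EBs, against 57.5 and 69.4 RPKM (-0.82 ± 0.16, adjusted p = 0.00782).

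Msgn1 was at 1.502 and 2.33 RPKM in Eed null EBs, against 5.99 and 3.52 RPKM (-1.10 ± 0.32, adjusted p = 0.0373). Its call was lost without Eed null replicate 1 or wild type replicate 1 (adjusted p up to 0.168), with a pseudocount of 0.1 (adjusted p = 0.128) and with no filter (adjusted p = 0.0786), and that of Gsc without Eed null replicate 2 or wild type replicate 1 (up to 0.103). Tbx6 did not pass, at 0.794 and 1.35 RPKM in Eed null EBs, against 1.34 and 1.98 RPKM (adjusted p = 0.213). Mesp2 was at 0.0346 and 0.158 RPKM in Eed null EBs, which is 3 and 12 reads, against 0.190 and 0.861 RPKM. In sum 8 of the 9 tested factors were lower and none higher, where 30.4% of all genes were called, 11.2% as lower and 19.2% as higher. Their median log2 change was -1.61, against 0.048 over all tested genes.

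The genes around the streak factors split in Eed null EBs. Of 16 tested genes of streak induction, inhibitors included, 6 rose and 5 fell. Lefty2 (97.8 RPKM in Eed null EBs, 5.64 RPKM in the wild type, log2 change 4.05), Lefty1 (3.56) and the Nodal-related ligand Gdf3 (3.74) rose, while the Nodal co-receptor Cfc1 fell (6.01 RPKM in Eed null EBs, 66.6 RPKM in the wild type, -3.34). Of 11 tested Wnt and T targets 2 rose and 4 fell: the Wnt inhibitor Notum rose (1.78), and Nkd1 (-1.60), Sp5 (-1.40) and Sp8 (-1.32) were among the 4. Of 11 tested genes of the anterior streak, node and endoderm 8 fell and 0 rose, led by the receptor Cxcr4 (3.85 RPKM in Eed null EBs, 20.7 RPKM in the wild type, -2.29), the secreted inhibitor Cer1 (-3.11), Foxj1 (-1.62) and Foxa1 (-1.73).

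Of 13 tested genes of emerging mesoderm 9 fell and 1 rose in Eed null EBs. Kdr, a VEGF receptor of blood and vessel precursors, was at 2.87 RPKM in Eed null EBs, against 21.5 RPKM in the wild type (-2.72), the bHLH factor Hand1 at 1.53 RPKM, against 11.9 RPKM (-2.62), and the gene that rose was Cited1 (1.36). Of 8 tested segmentation genes 2 rose, among them the bHLH factor Tcf15 (2.95), and 2 fell, among them Dll3 (-1.17). Apln was at 3.28 and 4.43 RPKM in Eed null EBs, against 4.30 and 3.57 RPKM, so that the ligand overlapped the wild type where its receptor fell.

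In the same Eed null EBs 13 of 14 pluripotency genes rose, and their sum was 2459 and 1936 RPKM, against 168 and 213 RPKM in wild type CJ7 EBs and 2384 to 2670 RPKM in undifferentiated wild type CJ7 mESCs. Of 16 extraembryonic endoderm genes 13 rose, led by Apob and Amn, and 2 fell, with a sum of 831 and 993 RPKM in Eed null EBs, against 300 and 253 RPKM in wild type CJ7 EBs. Of 12 tested fibroblast genes 3 rose and 3 fell, with a median log2 change of -0.05, while their sum, which is carried by its most abundant genes, was 102 and 129 RPKM in Eed null EBs, against 272 and 274 RPKM. Their part in the levels of the streak factors was not tested.

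Between Eed null and K754R EBs 7 of the 9 tested factors differed, 2 higher and 5 lower in Eed null. T was higher in Eed null than in K754R EBs by 1.72 ± 0.16 on the log2 scale (adjusted p = 0.000227) and Msgn1 by 2.02 ± 0.32 (0.00267). Aplnr was lower in Eed null EBs by 3.75 on that scale (log2 difference -3.75 ± 0.28, adjusted p = 9.53e-05), Mesp1 (-1.95 ± 0.31, 0.00255), Eomes (-1.80 ± 0.23, 0.000947), Mixl1 (-1.49 ± 0.19, 0.0011) and Gsc (-1.299 ± 0.27, 0.00808) likewise. Evx1 (-0.39 ± 0.23, 0.246) and Tbx6 did not pass. In this comparison 34.0% of all genes were called, 20.4% higher and 13.6% lower, and the call of Gsc was lost without K754R replicate 1 (adjusted p = 0.0524). Between Eed null and K754M EBs 6 of 9 factors were lower in Eed null (27.2% of all genes called, 9.17% lower and 18.0% higher), namely Mesp1, Mixl1, Aplnr, Eomes, Gsc and Evx1.

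**Figure D3:**
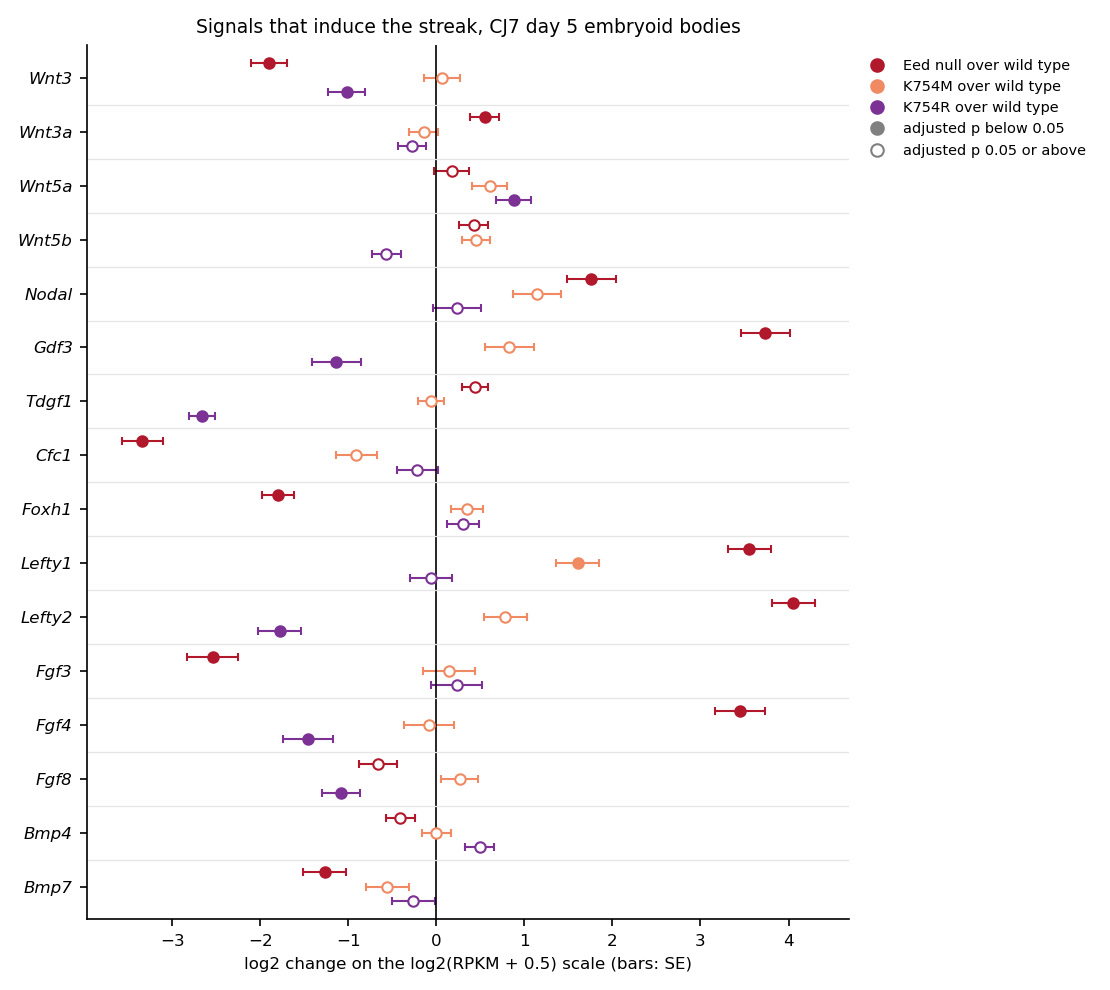
Log2 change on the log2(RPKM + 0.5) scale of 16 tested genes of streak induction in Eed null, K754M and K754R over wild type CJ7 EBs. The 16 include the Nodal inhibitors Lefty1 and Lefty2, and each group had 2 libraries. Points are limma estimates, bars are SE, and filled points passed an adjusted p of 0.05. Wnt3 is filled to the left in both Eed null and K754R; Tdgf1 and Fgf8 are filled in K754R alone of the 3, and Lefty2, Gdf3 and Fgf4 are filled to the right in Eed null and to the left in K754R.

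In the CCE line, pair B stood apart from wild type CCE EBs in most of the 10 genes, but none passed the test against all genes. T was at 14.3 and 17.3 RPKM in pair B, against 37.4 and 58.1 RPKM in wild type CCE EBs (log2 change -1.54 ± 0.25, adjusted p = 0.073). Mesp1 was at 1.43 and 2.78 RPKM in pair B, against 14.6 and 42.2 RPKM (-3.34 ± 0.67, adjusted p = 0.111). Msgn1 was at 0.714 and 0.833 RPKM in pair B, against 3.88 and 3.28 RPKM (-1.68 ± 0.19, adjusted p = 0.0565). In all 3 genes both pair B libraries lay below both wild type libraries; the gap was wider than the spread within the wild type for Msgn1 but not for T or Mesp1, in RPKM.

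Aplnr was at 11.1 and 14 RPKM in pair B, against 23.5 and 29.9 RPKM in wild type CCE EBs (-1.06 ± 0.17, adjusted p = 0.0716). Evx1 was at 3.82 and 3.89 RPKM in pair B, against 7.25 and 9.72 RPKM (-1.03 ± 0.18, adjusted p = 0.0878), and Mixl1 at 1.66 and 2.74 RPKM, against 5.49 and 5.71 RPKM (-1.21 ± 0.24, adjusted p = 0.108). Eomes was at 2.77 and 5.21 RPKM in pair B, against 6.71 and 7.73 RPKM (-0.83 ± 0.27, adjusted p = 0.229), and Gsc at 3.11 and 3.11 RPKM, against 4.12 and 3.68 RPKM. Mesp2 was at 0.0186 and 0.0362 RPKM in pair B, 1 and 2 reads, against 0.194 and 0.604 RPKM, 13 and 31 reads, a ratio of depth-scaled summed reads of 0.0742 (exact 95% interval 0.0147 to 0.231, counting error only). Thus 9 of the 10 genes had both pair B libraries under both wild type libraries, and Tbx6 overlapped. The share of all genes that lay apart in this way was not counted. With so few libraries a group, such gaps can arise by chance.

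All 10 genes were tested in CCE EBs and 0 were called in pair B against the wild type, where 0.135% of all genes were called (24, and 2746 at an unadjusted p under 0.05), 0.107% as higher and 0.0282% as lower. The number of members called was not stable in CCE EBs, at 5 with a fit of all 14 EB libraries and at 1 with a filter of 1 RPKM. Of the other lists, 2 of 16 extraembryonic endoderm genes rose in pair B, Amn (7.98 RPKM in pair B, 0.764 RPKM in the wild type) and Sparc, with a list sum of 366 and 423 RPKM in pair B, against 203 and 214 RPKM. Apln was at 0.745 and 1.05 RPKM in pair B, against 1.68 and 3.14 RPKM (adjusted p = 0.223), and Tdgf1, named after its values were seen, averaged 12.9 RPKM in pair B, against 49.9 RPKM (-1.94 ± 0.31, adjusted p = 0.0703).

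Pair A overlapped the wild type in 6 of the 10 genes, a share that was not counted over all genes. T was at 42.6 and 58.3 RPKM in pair A, against 37.4 and 58.1 RPKM in wild type CCE EBs (log2 change 0.10, 95% interval -0.52 to 0.71). Mesp1 was at 15.4 and 46.2 RPKM in pair A, against 14.6 and 42.2 RPKM (0.10, interval -1.55 to 1.75), replicate 2 being the high library in both groups. Msgn1, Mixl1, Evx1 and Aplnr had both pair A libraries below both wild type libraries, by at most 0.57 on the log2 scale (Evx1, -0.57 ± 0.18). None of the 10 passed, and 0.0% of all genes did (0 with limma, and 1166 at an unadjusted p under 0.05). Between pair A and pair B 8 of the 10 genes had both pair A libraries higher, a share not counted over all genes, and none passed. T was higher in pair A by 1.63 ± 0.25 (limma adjusted p = 0.0666), Msgn1 by 1.27 ± 0.19 (0.0666) and Mesp1 by 3.44 ± 0.67 (0.0853). In this comparison 0.44% of all genes were called (78, and 3319 at an unadjusted p under 0.05), 0.0959% as higher and 0.344% as lower in pair A.

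**Figure D4:**
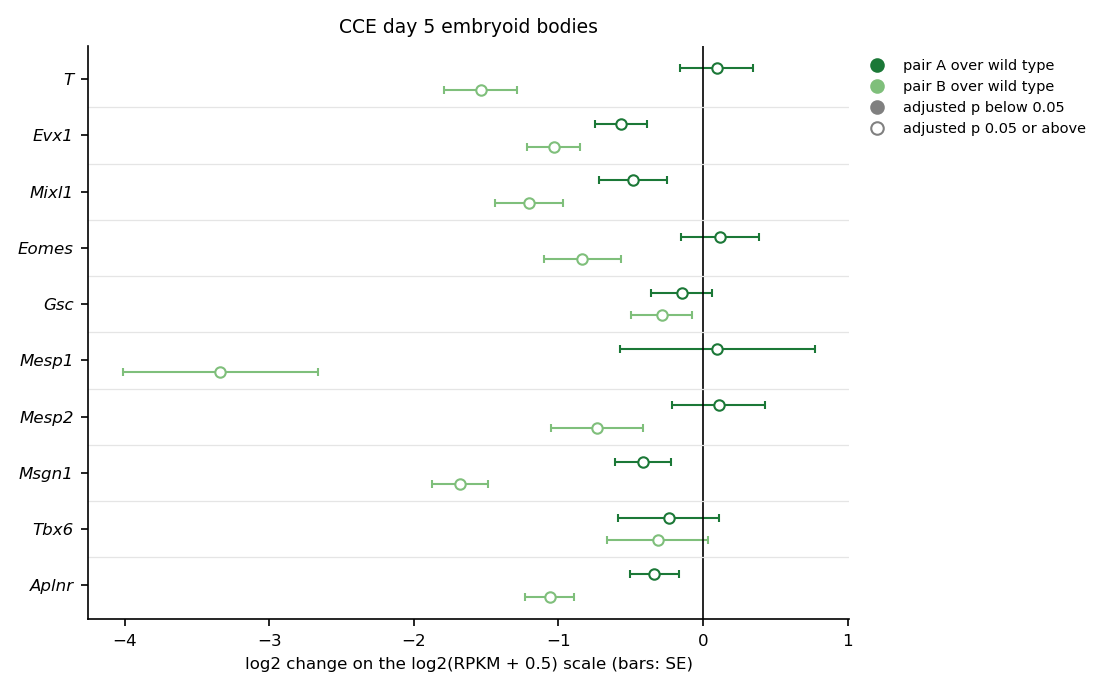
Log2 change on the log2(RPKM + 0.5) scale of the 10 genes in pair A and pair B over wild type CCE EBs, 2 libraries a group; points are limma estimates, bars are SE, and open points had an adjusted p of 0.05 or above. All points are open; those of pair B lie left of 0 for all 10 genes, from -3.34 (Mesp1) to -0.28 (Gsc), and those of pair A lie within 0.57 of 0.

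Between the wild type EBs of the 2 lines, 1 of 10 genes differed: Eomes was higher in CJ7 (log2 difference 1.35 ± 0.27, adjusted p = 0.015), where 6.82% of all genes were called, 4.17% as higher and 2.64% as lower in CJ7. That call was lost without any 1 of the 4 libraries (adjusted p 0.0513 to 0.0942). Gsc was at 8.77 and 6.81 RPKM in CJ7, against 4.12 and 3.68 RPKM in CCE (0.90 ± 0.26, adjusted p = 0.0687). Of 11 tested genes of the anterior streak, node and endoderm 7 were higher in CJ7 and none lower, led by Foxa2 (9.41 RPKM in CJ7, 2.20 RPKM in CCE, log2 difference 1.88). Line and culture cannot be told apart here.

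In undifferentiated mESCs the 10 genes were scarce as a sum, at 6.41 to 18.8 RPKM over 14 mESC libraries. The sum was 40.1 to 196 RPKM over 14 EB libraries, where its most abundant genes carry it. The 2 stages come from separate tables and were not tested against each other. Mesp1 had at most 4 reads, Aplnr and Msgn1 at most 3 each, and 20 of the 140 mESC values were listed at 0, where 3 reads would be 0.0181 to 0.478 RPKM. Gsc, Eomes and Tbx6 were the most abundant, at 2.23 to 13.2, 1.18 to 3.78 and 0.777 to 1.82 RPKM. Tbx6 thus spanned about the same range in mESCs as in EBs, where it was at 0.794 to 2.47 RPKM. Gsc and Mesp2 were not clearly scarcer in mESCs either. The median of Gsc was 3.75 RPKM over the mESC libraries and 4.33 RPKM over the EB libraries. That of Mesp2 was 0.275 RPKM in mESCs and 0.203 RPKM in EBs.

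Gsc rose in Eed null mESCs, at 11.9 and 13.2 RPKM, against 3.58 and 2.73 RPKM in wild type CJ7 mESCs (log2 change 1.84 ± 0.23, adjusted p = 0.00719). It was the only member called in mESCs, 1 of 6 tested, where 8.59% of all genes were called in this comparison, 5.32% as higher and 3.27% as lower, and the call was lost without either Eed null library or wild type replicate 2 (adjusted p up to 0.103). T was at 1.21 and 1.02 RPKM (39 and 32 reads) in Eed null mESCs, against 0.117 and 0.0636 RPKM (3 and 2 reads) in the wild type (1.45 ± 0.52, adjusted p = 0.141). T was also above the wild type in K754M mESCs, at 0.516 and 0.453 RPKM, and in K754R mESCs, at 0.652 and 3.35 RPKM (adjusted p = 0.745 and 0.194). K754R replicate 2, which held the highest T value, also held the highest fibroblast sum of the CJ7 mESCs, 1716 RPKM beside 663 RPKM in K754R replicate 1, and the highest sum of Wnt and T targets, 55.9 beside 23.3 RPKM, and the part of these in its T level was not tested.

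No member was called in K754M mESCs (0 of 6 tested, 0.0% of all genes, 2103 at an unadjusted p under 0.05), in K754R mESCs (0 of 6, 0.162% of all genes, 0.0761% higher and 0.0857% lower) or in EloA null CCE mESCs (0 of 5, 3.35% of all genes, 2.12% higher and 1.23% lower). In EloA null CCE mESCs all 10 genes overlapped the wild type, a share that was not counted over all genes. Mesp1, Msgn1 and Aplnr had at most 2 reads in any CCE mESC library, so their overlap says little. Gsc was at 2.39 to 4.07 RPKM in EloA null mESCs, against 3.20 to 4.50 RPKM in the wild type (log2 change -0.33, 95% interval -0.80 to 0.14), and Eomes at 2.11 to 2.87 RPKM, against 2.42 to 2.85 RPKM (-0.05, interval -0.35 to 0.25). With the replicate number as a block the count of members stayed 0, while 2288 genes over the whole table were called in place of 619.

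**Figure D5:**
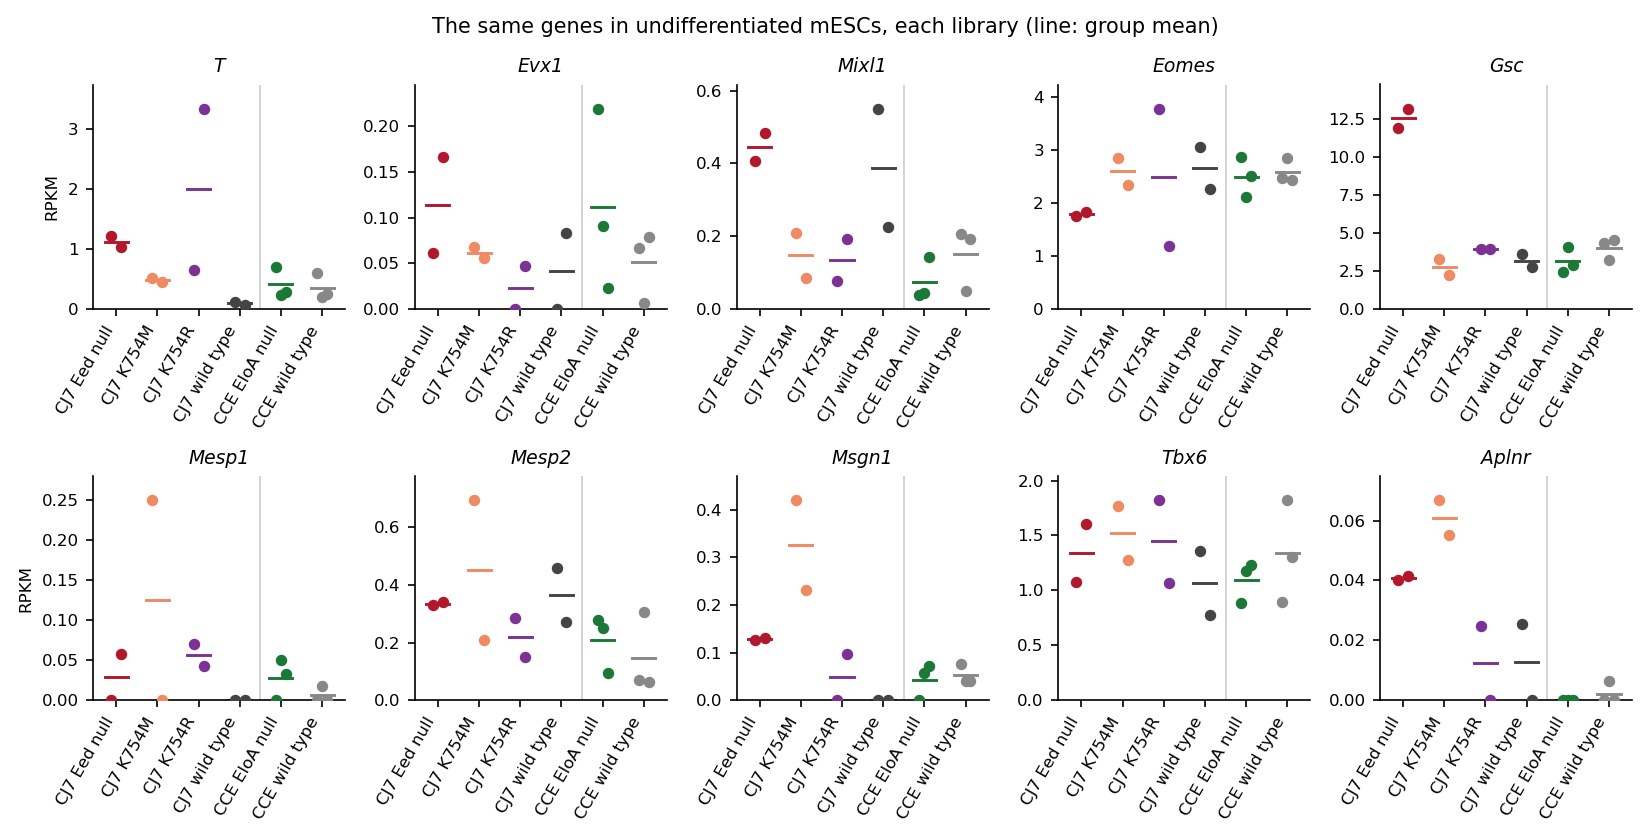
RPKM of each of the 10 genes in the 14 undifferentiated mESC libraries, 1 panel per gene with its own axis from 0, points for libraries and lines for group means. Gsc is high in both Eed null libraries (11.9 and 13.2 RPKM), T is highest in 1 K754R library (3.35 RPKM), and no point of Mesp1, Msgn1 or Aplnr rests on more than 4 reads.

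Across the 14 EB libraries the members formed looser and tighter pairs on the log2(RPKM + 0.5) scale, given as a description since the libraries share lines, groups and depth. The closest were Eomes and Gsc (Pearson r = 0.894), T and Msgn1 (0.862), Mesp1 and Evx1 (0.843), Mixl1 and Evx1 (0.821) and Mesp1 and Mesp2 (0.817), the last pair being neighbours on chromosome 7. T was nearly unrelated to Gsc (0.049) and Aplnr (0.023), and Msgn1 and Gsc ran slightly opposite (-0.24). Of 12600 genes compared, those outside the set closest to the mean of the 10 members over the 14 libraries were Tmem200a (r = 0.946), Pkd1l1 (0.939), Rftn1 (0.925), Gfpt2 (0.923) and Slc44a5 (0.921). Rftn1, for example, averaged 3.94 RPKM in Eed null, 14.4 in K754M, 8.47 in K754R and 13.4 RPKM in wild type CJ7 EBs, and 14.5 in pair A, 6.39 in pair B and 16.9 RPKM in wild type CCE EBs.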

How the data were processed

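Total RNA depleted of ribosomal RNA was sequenced, per the labels' protocols. The authors deposited RPKM values, 1 table for EBs and 1 for mESCs with 37583 genes each, and all 28 libraries were used. CASAVA 1.7, STAR and mm9 come from the submitters' processing notes, without their roles. How reads were assigned to genes, from which annotation, and whether by strand is not stated in the labels. RPKM corrects for length and library size, so a large rise of a few abundant genes lowers all others, and a large fall raises them. Depth was read from the step of 1 read, with GENCODE M21 exon lengths. Of 143 member values under 60 reads, 143 lay within 0.1 of a whole read once each gene's length was fitted to its low values, and those reads are quoted.

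Values were analysed as log2(RPKM + 0.5), which understates changes of low genes. Genes with 0.25 RPKM or more in at least 2 libraries of a fit were tested with limma-trend (limma 3.58.1, R 4.3.3), 1 fit per stage and line, Benjamini-Hochberg adjustment over all genes of a comparison and calls at adjusted p below 0.05. The lines were compared in 1 fit of all 14 EB libraries. The procedure was tested on simulated data. Errors of log2 changes are SE and those of RPKM are SD. The 2 stages were not tested against each other. Python 3.11.15 was used with pandas 2.3.3, scipy 1.17.1 and matplotlib 3.10.9.

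The members, gene lists and tests were chosen with earlier results of these data known. Outside the 10 members, each list is given by its counts and by up to 4 genes with the smallest adjusted p in a comparison, with exceptions named, and the genes most like the members are the 5 with the highest Pearson r. Same-numbered CCE mESC replicates deviated together (r across genes 0.51, 0.22 and 0.24). Other groups have only 2 numbers, which give a single r for each pair of groups. Against the wild type it was 0.43 for pair A and 0.22 for pair B in CCE EBs. In CJ7 EBs it was 0.20 for K754M, 0.17 for K754R and 0.012 for Eed null against the wild type. Between K754M and K754R EBs it was 0.23. No label says what equal numbers share, and the main fit used no pairing. The alternatives were other pseudocounts and filters, a rescaling, the replicate block, 1 fit per stage and leaving out each library.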

Additional observations from a re-analysis of the deposited data

Results flagged for a closer look

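In several genes every library of a genotype lay on one side of every wild type CJ7 library in EBs and on the other side in mESCs. The difference between the stages was not tested in any of them, because the stages come from separate tables. These genes were picked for that pattern, and its share over all genes was not counted. With so few libraries a group, it can arise by chance. In Eed null cells T had a log2 change of -0.82 in EBs and 1.45 in mESCs, and Gsc had -1.06 in EBs and 1.84 in mESCs. In K754R cells T had a log2 change of -2.54 in EBs and 1.84 in mESCs. In K754M cells T had -0.37 in EBs and 0.74 in mESCs, and Mixl1 had 0.98 in EBs and -0.44 in mESCs. Of the mESC values, only that of Gsc in Eed null cells passed the test. The K754M values of T and Mixl1 passed at neither stage. T in wild type CJ7 mESCs rests on 3 and 2 reads. Mixl1 rests on 6 and 3 reads in K754M mESCs, against 14 and 7 reads in wild type CJ7 mESCs. In K754R mESCs the T level of replicate 2 (3.35 RPKM) was above that of replicate 1 (0.652 RPKM).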

How the results depend on the processing

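No member reversed its direction where it was called. Counts of members called were 0 in K754M against wild type CJ7 EBs, and 1 with the replicate block (Gsc) and 2 with a fit of all 14 EB libraries (Gsc and Msgn1). In K754R against wild type CJ7 EBs they were 5, and 4 with no filter and 3 to 4 without 1 library. In K754M against K754R EBs they were 5, and 2 with no filter and 1 without any 1 library (T); with the block they were 5 again, with Gsc (adjusted p = 0.0131) gained and Msgn1 (adjusted p = 0.0569) lost, and with all 14 libraries 5, with Gsc gained and Mesp1 lost. In Eed null against wild type CJ7 EBs they were 8, and 7 with a pseudocount of 0.1 or no filter (Msgn1 lost) and 6 to 8 without 1 library. In pair B against wild type CCE EBs they were 0, and 1 with a filter of 1 RPKM, 5 with the replicate block and 5 with a fit of all 14 libraries. In pair A against pair B they were 0, and 1, 4 and 3 under the same settings. In Eed null mESCs they were 1, and 2 with the fit of all 14 mESC libraries and 0 to 1 without 1 library. In K754R mESCs they were 0, and 1 with the fit of all 14. Between the wild type EBs of the 2 lines they were 1, and 2 with the replicate block and 0 without any 1 library. Except in CCE mESCs the numbers are shared by only 2 replicates of a group, and no label says what equal numbers share. In CCE EBs same-numbered libraries did deviate together (r across genes 0.43 for pair A and 0.22 for pair B with the wild type). In CJ7 EBs r with the wild type was 0.20 for K754M, 0.17 for K754R and 0.012 for Eed null. In CCE mESCs the block changed no call of a member.

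Counts over all genes also moved. For Eed null against K754M EBs they were 5241, and 2847 to 3971 without 1 library, and for Eed null against K754R EBs 6570, and 4074 to 5546. For K754M EBs they were 109, and 58 with no filter, 185 with the 1 RPKM filter, 230 with the block, 434 with all 14 libraries and 0 to 17 without 1 library. For K754R EBs they were 1868, and 1199 with no filter, 2950 with the block and 177 to 1249 without 1 library. For K754M against K754R EBs they were 698, and 425 with no filter, 1099 with the block, 1358 with all 14 libraries and 21 to 64 without 1 library. For pair B they were 24, and 1 with no filter, 150 with the 1 RPKM filter, 703 with the block, 591 with all 14 libraries and 0 to 1 without 1 library. For pair A against pair B they were 78, and 0 to 1462 over the alternatives. For Eed null mESCs they were 1805, and 5211 with all 14 libraries and 179 to 417 without 1 library. For K754M and K754R mESCs they were 0 and 34, and 955 and 1747 with all 14 libraries; those of K754R were 14 with no filter, 2 with the block and 0 without any 1 library. For EloA null mESCs they were 619, and 296 with all 14 libraries and 158 to 640 without 1 library. Between lines they were 1366, and 2407 with the block and 567 to 768 without 1 library. The cause was not tested. At 11.1 to 18.2 M reads, Mesp1, Msgn1 and Aplnr had at most 4 reads in any CJ7 mESC library and did not pass the filter, so no difference was tested. With 0 or 1 read in the wild type libraries, a fall could not have been seen.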
